A study of Mus musculus with 6 samples.

Results

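The levels of 10 genes of Müller glia were followed through 6 bulk RNA-seq libraries of retinal ganglion cells from adult mice. The genes are Slc1a3, Glul, Rlbp1, Aqp4, Apoe, Clu, Dkk3, Vim, Sox9 and Sox2. They were chosen by name as known genes of this cell type, and 10 of 10 were among the 22413 genes of the count table. Both Tgfbr1 alleles were floxed in every library. In 3 libraries, Cre 1 to Cre 3, the mice also carried 1 Vglut2-Cre allele (genotype Tgfbr1flx/flx;Vglut2Cre/+). The mice of the other 3 libraries, control 1 to control 3, carried no Cre (Tgfbr1flx/flx;Vglut2+/+). Vglut2 is the name of the transporter encoded by Slc17a6, a gene of glutamatergic neurons that include the ganglion cells. Nothing in the labels tells if mice were pooled for a library, and p-values therefore measure the spread between these libraries, which may be technical. The comparison asks how much glial RNA these ganglion cell libraries held and whether it differed with the genotype.

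Müller glia are the principal glial cells of the retina and span its whole thickness, with endfeet beside the ganglion cells. They clear glutamate from synapses and turn it into glutamine, handle water and potassium, take part in the recycling of retinoids and supply lipids to neurons. Several of the genes are not particular to them: Slc1a3, Glul, Aqp4, Sox9 and Sox2 are also genes of astrocytes, which lie in the ganglion cell layer, Rlbp1 is made by the pigment epithelium too, Apoe by microglia, and Vim by endothelial cells and fibroblasts. Clu and Dkk3 are likewise known in other retinal or vascular cells. In bulk samples, fewer cells of a type and less RNA per cell cannot be told apart.

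The libraries held 7486359 to 21126291 counts. A count of 0 allows a level of up to 3 counts, which is 0.142 to 0.401 CPM (counts scaled to a library total of 1000000), for counting error alone. Counts of the targeted gene, Tgfbr1, were 1, 0 and 1538 among the controls and 46, 0 and 793 among the Cre libraries, and whole-gene counts do not separate the floxed part. At least 10 counts, called detection here, were reached by 4258 to 4863 genes in the controls and by 5790 to 7209 with Cre. Against its label, control 3 was low in ganglion cell genes: 14 such genes summed to 611 CPM there with Slc17a6 at 0 counts, and to 2792 to 4787 CPM in the other 5 libraries. Not every gene of that list was low there, and Rbpms and Pou4f1 were at 257 and 85.1 CPM. The same library held 8161 CPM of 14 endothelial genes, where the others held 36.1 to 796 CPM. The Vim fold change, the summed level and the list medians stated below are given with and without control 3.

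Each library held counts of some of the 10 genes and 0 counts of 3 to 7 of them. Vim and Glul were detected in 6 of 6 libraries and Clu in 5. Of the other 7 genes, Apoe was detected in 3 libraries, Slc1a3 in 2, Rlbp1, Aqp4, Sox2 and Sox9 in 1 each, and Dkk3 in none, with 5 counts in Cre 3 and 0 elsewhere. A like unevenness ran through the table: of 11977 genes detected in some library, 32.7% were detected in 1 library and 9.99% in 6, beside 4 and 2 of the 10 Müller glia genes. By library, 3, 6 and 5 of the 10 were detected in controls 1, 2 and 3, and 4 in each Cre library. After thinning to the smallest total the numbers were 3, 6 and 5 against 4, 3 and 4.

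**Figure D1:**
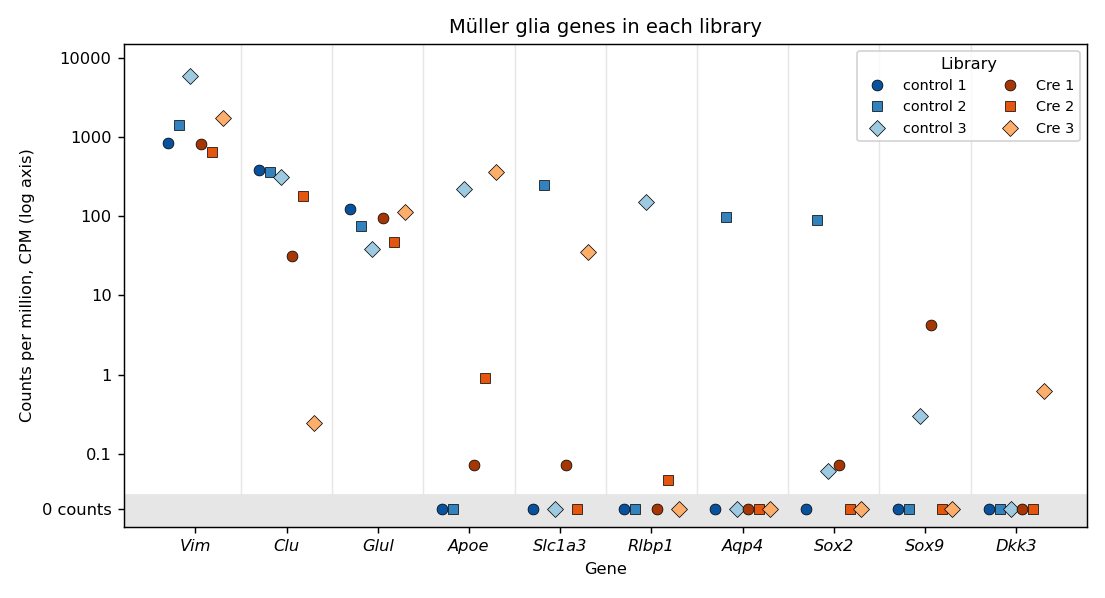
Level of each of the 10 Müller glia genes in each of the 6 libraries, in CPM on a log axis, with libraries at 0 counts in the grey band. Vim and Glul lie at 39.0 CPM or above in every library, while Slc1a3, Rlbp1, Aqp4 and Sox2 are high in 1 or 2 libraries and at 0 or 1 count in the others.

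Levels of different genes are compared per length, as FPKM (CPM per kilobase of gene). Vim, which encodes the intermediate filament vimentin, averaged 1030 FPKM over the 6 libraries. Clu averaged 94.6, Apoe 39.9 and Glul 29.5 FPKM. Rlbp1, Slc1a3 and Sox2 averaged 7.71, 7.05 and 6.04 FPKM and Aqp4 2.73, each resting on 1 or 2 libraries, and Sox9 and Dkk3 were at 0.182 and 0.0287 FPKM. Vim was the highest of the 10 in each library. Below it the order changed: Clu came next in controls 1 to 3 and Cre 2, Glul in Cre 1 and Apoe in Cre 3. The averages of Rlbp1, Slc1a3, Sox2 and Aqp4 are not separated by their spread over libraries, since each gene was at 0 counts in 3 to 5 of the 6.

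Glutamate handling was represented by a transporter seen in few libraries and an enzyme seen in all 6. Slc1a3 (mm10 chromosome 15, 8634124 to 8710764) encodes the glutamate and aspartate transporter GLAST of the glial membrane. Its counts were 0, 1842 and 0 in controls 1 to 3, a level of 246 CPM in control 2, and 1, 0 and 290 counts in Cre 1 to 3, a level of 35.8 CPM in Cre 3. The genotypes overlapped, with control 2 highest and 4 libraries at 0 or 1 count. Glul (chromosome 1, 153899944 to 153909723) encodes glutamine synthetase, which makes glutamine from the glutamate taken up. Its counts were 1442, 561 and 638 in the controls and 1322, 1015 and 910 with Cre, or 124, 74.9 and 39.0 CPM against 94.9, 48.0 and 112 CPM. Glul was the steadiest of the 10 genes, with a highest level 3.19 times the lowest, and its genotype means of 85.1 ± 33.3 CPM with Cre and 79.4 ± 42.8 CPM without (SD, n = 3) differed by less than either SD. Of the libraries with Slc1a3, Cre 3 was among the highest for Glul, and control 2 had less Glul than 3 others.

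The retinoid carrier and the water channel each came from a single library. Rlbp1 (chromosome 7, 79374870 to 79387048) encodes CRALBP, which binds 11-cis retinoids. Control 3 held 2493 of its 2494 counts, at 152 CPM, and Cre 2 held the other count. Aqp4 (chromosome 18, 15389496 to 15410982), the water channel of glial endfeet, had 737 counts in control 2 (98.4 CPM) and 0 in the 5 other libraries. Over the 3 Cre libraries together it was thus at least 299-fold lower than over the 3 controls, with a floor of 3 counts over the group, but controls 1 and 3 were at 0 as well. These genes therefore set single libraries apart, not the genotypes.

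Sox2 and Sox9 encode transcription factors of retinal progenitors that Müller glia keep in the adult. Sox2 (chromosome 3, 34650405 to 34652461) gave 0, 668 and 1 counts without Cre and 1, 0 and 0 with Cre, so 99.9% of its summed CPM lay in control 2. The non-coding gene Sox2ot, which spans Sox2 on the same strand with no shared exon bases in the annotation, had 2 counts in Cre 3 and 0 in every other library. Sox9 (chromosome 11, 112782224 to 112787760) had 0, 0 and 5 counts against 59, 0 and 0, with its highest level, 4.23 CPM, in Cre 1. Both factors were thus near 0 in 5 of 6 libraries, and their high libraries were different ones.

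Slc1a3, Aqp4 and Sox2 shared control 2 as their highest library, at 246, 98.4 and 89.2 CPM, while Rlbp1, Apoe, Sox9 and Dkk3 were at 0 counts there. Likeness of 2 genes was measured as the overlap of their CPM, taken as shares of each gene's sum over the 6 libraries, from 0 to 1. Aqp4 and Sox2 overlapped by 0.999 and Slc1a3 and Sox2 by 0.873. A pattern of 1 high library is common in the table. The genes compared were 6033 others averaging at least 20 CPM, with predicted genes, Riken genes and pseudogenes left out by symbol. Of these, 147 overlapped Aqp4 by 0.9 or more, and the most alike was Amy1, with 2492 counts in control 2 and 0 elsewhere. For Rlbp1, 211 genes did so, led by Ptprr with 2891 counts in control 3 and at most 1 in any other library, the library of the Rlbp1 counts. Other glial genes went both ways in control 2, and those given here were named after their values were seen. Spc25, Ptn and S100b had most of their counts there, at 7832, 10134 and 523, while Hes1, Notch1, Gja1, Slc1a2 and Aldoc were at 0 counts. The list of other Müller glia genes described below summed highest in control 2, at 6181 CPM, with control 3 next at 5655 CPM.

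The secreted lipid carriers were high in different libraries. Apoe (chromosome 7, 19696109 to 19699188) encodes apolipoprotein E, the main lipid carrier that glia release. Its counts were 0, 0 and 3651 without Cre (223 CPM in control 3) and 1, 19 and 2919 with Cre (360 CPM in Cre 3). Each genotype thus had 1 high library and 2 near 0, and the means were 120 ± 208 CPM with Cre and 74.3 ± 129 CPM without. Of the microglia genes, Cx3cr1, P2ry12 and Tmem119 had at most 4 counts in any library, and 11 microglia genes summed to 0 CPM in control 3 and 0.988 CPM in Cre 3. The part of microglia in the Apoe level was not tested.

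Clu (chromosome 14, 65968483 to 65981547) encodes clusterin, a secreted chaperone also called apolipoprotein J. Controls 1 to 3 held 4497, 2690 and 5200 counts, or 387, 359 and 318 CPM. With Cre it had 439, 3776 and 2 counts, or 31.5, 179 and 0.247 CPM. Clu was the one gene of the 10 whose levels did not overlap between genotypes, and every Cre library lay below every control. Of the 5727 genes tested, 2.3% were lower with Cre without overlap and 10.4% higher without overlap. The controls were close together, at 355 ± 35.1 CPM, with the highest 1.22 times the lowest, while the Cre libraries spread 724-fold around a mean of 70.2 ± 95.3 CPM. The log2 fold change, Cre against control, was -2.25 ± 2.03 (SE) and did not pass edgeR's quasi-likelihood test (Benjamini-Hochberg adjusted p = 1, unadjusted p = 0.28). Cre 3, where Clu was lowest, was the library with the most Apoe. Its most alike gene was Tmem41b, with an overlap of 0.964.

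Dkk3 (chromosome 7, 112116017 to 112159057), a secreted protein of the Dickkopf family, had 5 counts in Cre 3, or 0.617 CPM, and 0 in the other libraries. Its level was close to the floor in each, and no difference was detectable at this depth.

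Vim (chromosome 2, 13573927 to 13582826) was counted 9734, 10549 and 96054 times in controls 1 to 3, or 838, 1409 and 5867 CPM. The Cre libraries had 11382, 13651 and 14198 counts, or 817, 646 and 1753 CPM. Vim lay above at least 97.4% of the genes with counts in each library, and the genotypes overlapped. Control 3 held 61.7% of its counts. The log2 fold change was -1.24 ± 0.604 (edgeR adjusted p = 1, unadjusted p = 0.0565), and without control 3 it was 0.02 ± 0.589 (edgeR adjusted p = 1). Control 3 was also the library high in endothelial genes, with Cdh5 at 23749 counts there and 8 to 2114 elsewhere, and 13 of 14 endothelial genes detected against 1 to 9 elsewhere. The median log2 fold change of the 9 endothelial genes tested was -1.91, beside 0.14 for all tested genes. Without control 3 it was 0.64 beside 0.56. The part of other cells in the Vim level was not tested. The most alike gene was Sdcbp, with an overlap of 0.912 and 50839 counts in control 3.

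None of the 10 genes passed the comparison of genotypes. The low-count filter kept 4 of them, Vim, Clu, Glul and Apoe, and the other 6 were at too few counts in too many libraries to be tested. Of the 4, edgeR called 0 at an adjusted p under 0.05 and 0 at an unadjusted p under 0.05. Over all 5727 tested genes it called 0, which is 0%, and 281 (4.91%) had an unadjusted p under 0.05. DESeq2 called 0 of the 3 to which it gave an adjusted p, Vim, Clu and Glul, beside 885 of 5900 genes with an adjusted p (15%), and limma voom called 0 of the 4 beside 88 of 5727 (1.54%). The log2 fold changes of Apoe and Glul were 0.66 ± 3.32 and 0.15 ± 2.75 (edgeR adjusted p = 1 for both), and the sign for Glul turned with DESeq2's size factors, to -0.06. The median over the 4 was -0.54, beside 0.14 over all tested genes, and with DESeq2's size factors the values were -0.81 and -0.13. Without control 3, where 5 of the 10 were tested, the edgeR median was -0.23 beside 0.56. An interval of 1 SE spans no change for Apoe and Glul, and the SEs leave multi-fold differences possible for all 4. The SE of Glul draws on the spread of genes of like level, and its own highest level was 3.19 times its lowest.

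**Figure D2:**
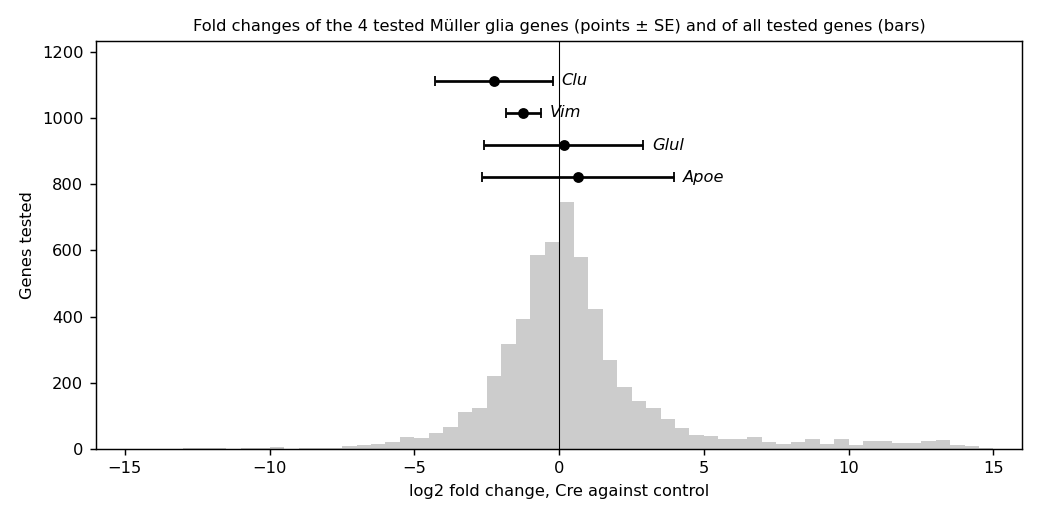
Log2 fold changes, Cre against control, from the edgeR fit: grey bars count all 5727 tested genes, and points with bars give the estimate ± SE of Apoe, Glul, Vim and Clu. The 4 points, from -2.25 to 0.66, lie within the bulk of the tested genes.

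As a measure of glia in the sample, the summed level of the 10 genes was mostly a measure of Vim. The sum was 1350, 2277 and 6599 CPM in controls 1 to 3 and 948, 874 and 2263 CPM in Cre 1 to 3, from 0.0874% to 0.66% of a library's counts. Vim made up 61.9% to 88.9% of it. The mean was 1361 ± 781 CPM with Cre and 3409 ± 2802 CPM without, a log2 ratio of -1.32, which became -0.41 without control 3, the library highest in Vim and in endothelial genes. The genotypes overlapped, since Cre 3 lay above control 1. Per CPM of ganglion cell genes the sum was 0.35, 0.476 and 10.8 in the controls and 0.284, 0.234 and 0.81 with Cre, and control 3, where ganglion cell genes were low, again stood apart.

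Without Vim the order of the libraries changed. The other 9 genes summed to 512, 868 and 732 CPM in controls 1 to 3 and to 131, 228 and 509 CPM in Cre 1 to 3. Every Cre library was below every control, but Cre 3 lay close to control 1. Clu made up 75.7%, 41.4% and 43.4% of this sum in the controls and 24.1%, 78.5% and 0.0485% with Cre. Leaving out Clu as well gave 124, 509 and 415 CPM in the controls and 99.3, 49.0 and 509 CPM with Cre, and the genotypes overlapped.

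The 5 genes most restricted to glia within the neural retina, Glul, Rlbp1, Slc1a3, Aqp4 and Sox9, summed to 124, 419 and 192 CPM in the controls and 99.2, 48.1 and 148 CPM with Cre. The genotypes overlapped, with control 2 highest and Cre 2 lowest. Different genes carried this sum in different libraries: Glul was 100% of it in control 1, 95.7% in Cre 1 and 99.9% in Cre 2, but 17.9% in control 2, where Slc1a3 and Aqp4 were present, and 20.3% in control 3, where Rlbp1 was.

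**Figure D3:**
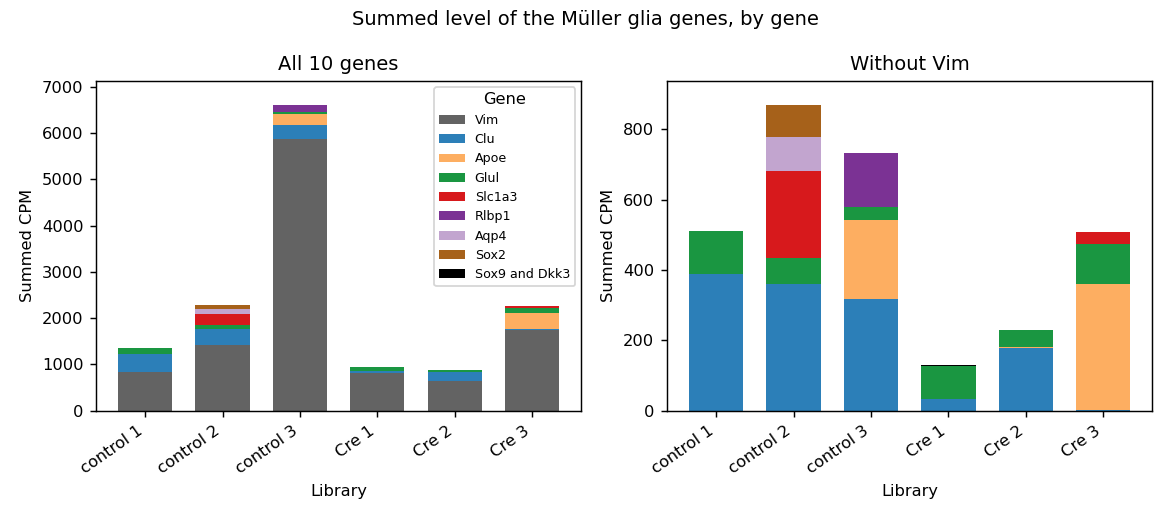
Summed CPM of the Müller glia genes in each library, stacked by gene, for all 10 genes on the left and without Vim on the right, where the scale is smaller. Vim makes up most of each bar on the left, and on the right Clu is large in every control but small in Cre 1 and near 0 in Cre 3.

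Other Müller glia genes were as uneven. Of a list of 26, which does not include the 10, 23 were in the table and 19 were detected in some library, 10 to 11 per control and 11 to 13 per Cre library. They summed to 1698, 6181 and 5655 CPM in the controls and 3259, 1449 and 1316 CPM with Cre, and the genotypes overlapped. The highest was Dbi, a binder of acyl-CoA found in glia and neurons alike, with 12661, 8160 and 0 counts in the controls and 13527, 7027 and 2514 with Cre. Cd9, a tetraspanin shared with other cells, had 908, 5499 and 33955 against 8555, 5222 and 0 counts, and Prdx6, an antioxidant enzyme, 0, 5660 and 7989 against 7411, 3 and 1219. Of the 14 tested, 3 had a positive and 11 a negative log2 fold change in edgeR, the median was -1.04 beside 0.14 for all genes, and 0 passed or had an unadjusted p under 0.05. Without control 3 the median was -0.09 beside 0.56 for all genes, and without control 2 it was -0.12 beside 0.45. The list was thus nearer to all genes but still below them, with 9 of 15 tested genes negative each time. DESeq2 called 1 of the 21 genes of the list with a p-value: Rdh10, a retinol dehydrogenase, higher with Cre (adjusted p = 0.0432). Over the table it called 885 of the 17511 genes with a p-value. Rdh10 had 483, 208 and 0 counts with Cre and 0, 0 and 1 in the controls. The low-count filter left Rdh10 untested in edgeR and limma voom, and limma voom called 0 of the 14 genes of the list it tested.

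The pathways around the 10 genes were carried partly by genes that neurons also use. Of 9 other glutamate and glutamine genes in the table, 5 to 7 were detected in each library, and their sum ranged from 1229 to 1754 CPM in the controls and 1146 to 1792 CPM with Cre. The highest were the glutamine transporters Slc38a2 and Slc38a1 and the aspartate aminotransferase Got1, and of 7 tested, 4 were positive and 3 negative. The glial glutamine exporter Slc38a3 had at most 4 counts in any library. Of 7 other retinoid genes, 0 to 1 were detected in the controls and 1 to 3 with Cre, led by Rdh11 with 6007 counts in control 1, and Rpe65 had at most 4 counts. Of 8 other lipoprotein genes, 4 to 6 were detected in each library, and 4 of the 7 tested were positive. They were led by Apod, with 4233 counts in control 3, 2621 in Cre 1 and 1374 in Cre 2, followed by Lpl. edgeR called 0 genes of these lists, with 0 at an unadjusted p under 0.05.

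Markers of astrocytes were mostly at or near 0. Gfap, the astrocyte filament that Müller glia also make when stressed, was at 4, 0 and 6 counts in the controls and 1, 0 and 0 with Cre, Aldh1l1 had at most 1 count, and Pax2 at most 1. Of 9 astrocyte genes in the table, 4 were detected anywhere, and the sum ran from 1.46 to 245 CPM in the controls and 0.617 to 394 CPM with Cre. The highest were the gap junction gene Gja1 with 3994 counts in control 3, the transporter gene Slc1a2 with 3353 in Cre 1 and Aldoc with 1912 in Cre 1 and 1162 in Cre 2. DESeq2, which called 15% of the genes with an adjusted p, called Aldoc higher with Cre (adjusted p = 0.0123). The low-count filter of edgeR and limma voom kept 1 gene of the list, Gja1, and both called 0. Aldoc was thus not tested by either. The library with the most Slc1a3, Aqp4 and Sox2, control 2, held 69.9 CPM of astrocyte genes with 1 detected. That gene was S100b, with 523 counts there and at most 1 in any other library, while Gfap was at 0 in control 2.

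Genes of reactive gliosis, which glia raise after injury, summed to 602 to 1177 CPM in the controls and 148 to 875 CPM with Cre for 12 genes in the table. The highest were the adhesion receptor Cd44, with 4834, 1399 and 0 counts in the controls and 1271, 2548 and 1064 with Cre, the lipocalin Lcn2, with 6300 counts in control 2 and at most 6 in any other library, and the transcription factor Cebpd. Without Cre, Cebpd was at 0, 1116 and 5852 counts, and with Cre at 1, 0 and 0. It was the 1 gene DESeq2 called of 9 with a p-value (adjusted p = 0.00439, lower with Cre), beside 885 of 17511 over the table. Most of its counts were in control 3, and that DESeq2 value was not computed without this library. Cebpd was not among the 6 genes that the low-count filter kept for edgeR and limma voom. edgeR called 0 of these 6, with 0 at an unadjusted p under 0.05, and limma voom called 0. With and without control 3, 4 tested genes were positive and 2 negative in edgeR. Their median log2 fold change was 2.35, beside 0.14 for all tested genes. Without control 3 it was 8.18 beside 0.56, fitted with genes such as Timp1 and Socs3 at 0 counts in controls 1 and 2. Without Cre 1 the median was 0.15, over 8 tested genes, beside 0.03.

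Pigment epithelium genes bear on Rlbp1. Of the 6 genes present in the matrix, Pmel was detected, with 1760 counts in control 3, 4 in Cre 1 and 1 in Cre 3. The list summed to 107 CPM in control 3 and at most 0.741 CPM elsewhere, and Rpe65, Tyrp1, Ttr and Dct had 0 counts in control 3. Control 3, the library with the Rlbp1 counts, thus held 1 of the 6 pigment epithelium genes, beside 13 of 14 endothelial genes. The part of other cells in the Rlbp1 level was not tested.

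**Figure D4:**
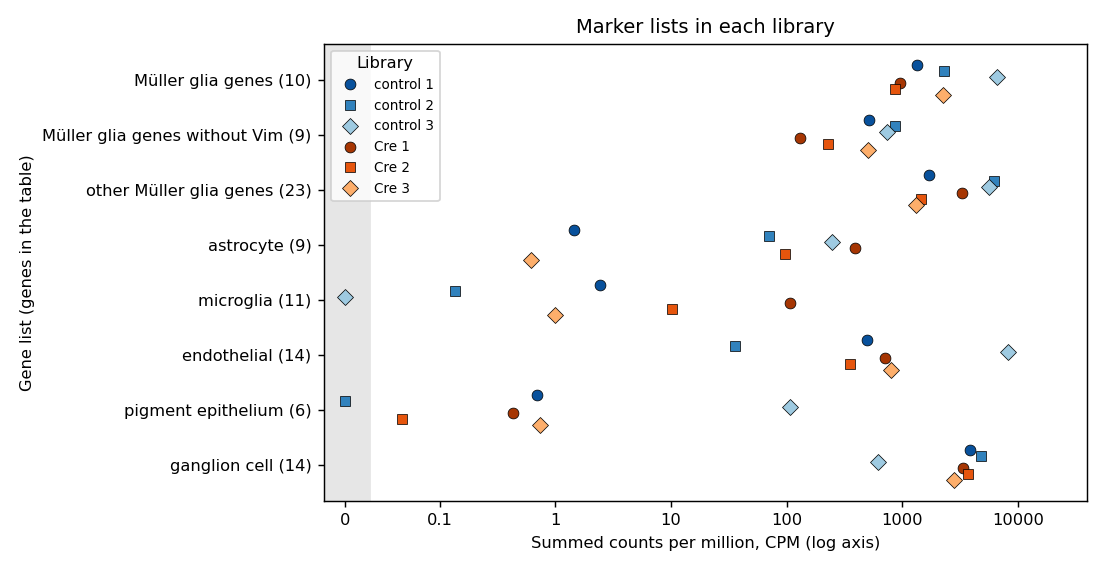
Summed CPM of 8 gene lists in each library on a log axis, with sums of 0 in the grey band. Control 3 is highest for the Müller glia genes, the endothelial genes and the pigment epithelium genes and lowest for the ganglion cell genes, and without Vim the 3 controls lie between 512 and 868 CPM.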

How the data were processed

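The authors deposited raw counts per gene and FPKM for 6 libraries, whose input was 1 ng of total RNA (VAHTS Universal V6 kit, per the labels' protocols). The tools HISAT2, HTSeq, fastp, DESeq2 and R 3.2.0 and the build mm10 are listed, with no role for each, per the submitters' processing notes. The sources used here do not give the cell isolation, the annotation or the strand setting, so antisense partners, such as Teddm2 for Glul, cannot be told apart. Each FPKM value the authors deposited is a count over its library total and over 1 length per gene (largest relative spread of that length 6.5e-07). No row lacked a gene name.

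Counts were tested with edgeR 4.0.16 (R 4.3.3; TMM, filterByExpr, robust quasi-likelihood F test, genotype as the only term, Benjamini-Hochberg over all genes tested, threshold 0.05), after a check on simulated data. Its SEs draw each gene's spread towards that of genes of like level. DESeq2 1.42.0, limma 3.58.1 (voom, and log2(FPKM + 1) or log2(FPKM + 0.1)), other scalings and filters, a replicate block and leaving out each library were alternatives. Sums, likeness and thinning used Python 3.11.15 and have no test. Coordinates are those of GENCODE M21 (mm10).

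The 10 genes and the other gene lists were chosen with earlier results of these data known. Named genes were the 10 members and up to 3 genes of each other list by mean CPM. Also named, for each member of at least 60 counts, was the most alike gene with a mean of at least 20 CPM. Predicted genes, Riken genes and pseudogenes were left out of that search by symbol. Defining markers at or near 0, genes called by another tool, and Spc25, Ptn and S100b were named outside this rule. Some genes that the rule names are left out of the text.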

Additional observations from a re-analysis of the deposited data

How the results depend on the processing

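None of the 10 genes was called in any of the 15 alternatives that tested them, which covered 3 to 10 of the genes. The number of genes called in the table was 885 with DESeq2, 88 with limma voom and 0 to 7 with 1 library left out. Clu stayed negative in 15 of 15 alternatives (-4.67 to -1.69). Glul had no stable sign: its log2 fold change was -0.06 with DESeq2's size factors, -0.07 in the DESeq2 test and -0.23 to 0.85 with 1 library left out. Vim ran from -1.68 to 0.02 with 1 library left out, positive without control 3. The unadjusted p of Vim in edgeR was 0.000564 without control 2 (adjusted p = 0.359) and 0.969 without control 3. In limma voom it was 0.0129 (adjusted p = 0.214). Apoe ran from -7.13 without Cre 3 to 13.42 without control 3; both were fitted against libraries near 0 counts and are no bounds. The log2 ratio of the summed level stayed negative, from -1.9 without Cre 3 to -0.41 without control 3, -1.28 without Vim and -1.32 for the 5 genes most restricted to glia. The mean number of the 10 genes detected with Cre minus that in the controls was -0.67, and 0.67 when 1 count was enough, which counts libraries at the floor. Over the whole table, every Cre library had more genes detected than every control.

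Deviations of same-numbered libraries correlated at -0.02, 0.03 and -0.01 across genes, and those of differently numbered ones at -0.05 to 0.05. Since many genes were detected in 1 library alone, these values cannot settle whether the sample numbers pair the libraries. With the replicate block 0 genes were called, and the log2 fold changes were -0.86 for Vim, -4.0 for Clu, 0.26 for Glul and 3.0 for Apoe. With 3 libraries per genotype, and genes at 0 in some libraries and at high counts in others, differences of several fold could not be told from the spread between libraries.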

Other observations

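Genes of other retinal neurons were also uneven between libraries. Of 9 amacrine genes, 2 were detected in each control and 2 to 5 with Cre, led by the transcription factor Tfap2b, and of 4 horizontal cell genes 1 to 3 and 2 to 4, led by Calb1. Bipolar genes were carried by Prkca, with 829, 1221 and 0 counts in the controls and 2069, 2957 and 1453 with Cre. Rod genes were near 0, and the rod list summed to at most 13 CPM in any library. The cone list reached 1294 CPM in control 3 through Gngt2 with 21184 counts, while Opn1mw and Gnat2 had at most 2 counts in any library.

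Oligodendrocyte genes, from the cells that myelinate the optic nerve, summed to at most 17.3 CPM, with 284 counts of Mbp in Cre 2. Pericyte and smooth muscle genes summed to 0.172, 546 and 490 CPM in the controls and 217, 53.3 and 538 CPM with Cre. Their highest gene, Acta2, had 4089 counts in control 2, the library high in Slc1a3, Aqp4 and Sox2. Tyrobp, the highest microglia gene, had 1181 counts in Cre 1, 1 in control 2 and 0 elsewhere.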
